A study of Homo sapiens with 12 samples.

Results

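Interferon-stimulated and antigen presentation genes were followed in RPE1 cells after knockdown of Anillin, a scaffold protein of the contractile ring that closes the cell at the end of division. The set held 40 named genes of the 57773 gene identifiers in the deposited table, and each of the 40 symbols matched 1 Ensembl identifier (DDX58 is now named RIGI). RPE1 is an immortalised line from the human retinal pigment epithelium. The cells had received siRNA against Anillin or a control siRNA, called Random in one label field and nt in another, with Lipofectamine RNAiMAX for 24 h. Live cells then took up a Hoechst DNA dye (60 min, 37 °C, 2 µg/mL) and were sorted into fractions of 4N and 2N DNA content. The 4 groups were Anillin 4N, control 4N, Anillin 2N and control 2N, with 3 RNA-seq libraries each and 12 in all. All groups thus share the transfection, the dye and the sort. No label used here ties the replicates to separate cultures, so p-values here measure only the spread between these samples.

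Interferons are secreted proteins that cells release after sensing foreign or misplaced nucleic acid, and that bind receptors linked to JAK kinases. The kinases activate STAT proteins, which join IRF9 to form the factor ISGF3, and ISGF3 binds the interferon-stimulated response element (ISRE) in front of its target genes. Other STAT complexes bind gamma-activated sites (GAS), and IRF1 binds elements like the ISRE. The target genes encode RNA sensors, antiviral effectors and the machinery that loads peptides onto MHC class I for display to T cells, and several are expressed at a low level without added interferon.

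Values are RPKM as the authors deposited them, that is, reads scaled to the size of the library and, here, to the genomic span of the gene. A member entered the test where it reached 0.5 RPKM in at least 3 libraries, and the test was limma-trend on log2(RPKM + 0.5) over all 12892 genes that did so, with a threshold of 0.05 on the adjusted p. Log2 changes are on that scale, which understates the change of low genes, and are given ± SE. Of the 40 members, 28 passed the filter and 12 did not. Whole reads behind the values were recovered from the table, and limma-voom on those reads, which 39 members entered, is given as a second fit. The libraries held 17412743 to 61760470 reads in genes. ANLN, the targeted gene, was at 0.0700 to 0.0989 RPKM in Anillin 4N against 7.45 to 8.42 RPKM in control 4N. In Anillin 2N it was at 0.0395 to 0.0850 RPKM, against 1.25 to 1.88 RPKM in control 2N, so every library went with its label. Defining genes of differentiated retinal pigment epithelium were near 0 (RPE65 at a mean of 0.0393 RPKM, RLBP1 at 0.034, TTR at 0), and 3 of 13 markers passed the filter, OTX2, KRT8 and KRT18. Of 11 blood and plasmacytoid dendritic cell markers, CD68 alone passed. CD3E, AIF1, LILRA4 and HBB had 0 reads in all 12 libraries. The summed level of these 11 was 13.1 to 14.9 RPKM in Anillin 4N against 16.7 to 17.5 in control 4N, and 13.0 to 13.6 in Anillin 2N against 16.9 to 17.1 in control 2N, nearly all of it CD68. The summed level of the 13 pigment epithelium markers was 99.8 to 109 RPKM in Anillin 4N against 121 to 124 in control 4N, and 113 to 125 in Anillin 2N against 135 to 152 in control 2N, most of it KRT18. The part of either marker list in the results was not tested. In RNA from sorted populations, fewer cells expressing a gene and less of its RNA per cell cannot be told apart.

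The promoters of 6 members are printed because their genes moved in different ways in the same libraries. They are ISG15, IFIT1 and OAS3, with a pair of ISRE matches each, TAP1 and its neighbour PSMB9, which face away from each other, and HLA-B. Each is a RefSeq window of 300 bases on GRCh38.p14, from 250 before the start of the gene to 50 after it, 5′ to 3′ on the strand of the gene. Capitals mark ISRE matches (GAAANNGAAA on either strand, and those of ISG15 and of TAP1 overlap each other), and none of the 6 holds a GAS match (TTCNNNGAA). The ISG15 window is chr1:1013247-1013546 on the plus strand.
ISG15: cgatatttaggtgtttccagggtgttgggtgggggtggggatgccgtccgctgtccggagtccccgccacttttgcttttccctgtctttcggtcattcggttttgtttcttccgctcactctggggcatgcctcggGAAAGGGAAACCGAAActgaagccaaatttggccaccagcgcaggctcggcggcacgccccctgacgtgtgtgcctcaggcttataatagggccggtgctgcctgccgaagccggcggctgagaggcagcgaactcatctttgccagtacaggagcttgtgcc
The IFIT1 window is chr10:89392373-89392672 on the plus strand, and its matches lie on the opposite strand.
IFIT1: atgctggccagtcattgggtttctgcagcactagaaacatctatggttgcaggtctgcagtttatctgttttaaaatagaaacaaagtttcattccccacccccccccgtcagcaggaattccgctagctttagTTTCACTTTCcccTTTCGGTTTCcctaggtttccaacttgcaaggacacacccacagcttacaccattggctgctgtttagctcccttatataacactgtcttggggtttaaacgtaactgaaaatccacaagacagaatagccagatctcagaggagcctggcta
The OAS3 window is chr12:112938224-112938523 on the plus strand.
OAS3: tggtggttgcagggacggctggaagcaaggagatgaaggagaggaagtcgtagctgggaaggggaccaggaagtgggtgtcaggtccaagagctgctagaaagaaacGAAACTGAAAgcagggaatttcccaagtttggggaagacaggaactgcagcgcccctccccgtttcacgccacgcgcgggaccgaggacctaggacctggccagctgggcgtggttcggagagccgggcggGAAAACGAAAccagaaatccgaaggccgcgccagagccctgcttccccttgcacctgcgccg
The TAP1 window printed is chr6:32853655-32853954 on the minus strand, and its matches also lie on the opposite strand. Another TAP1 window, chr6:32852712-32853011, is not printed and held no ISRE match and 1 GAS match.
TAP1: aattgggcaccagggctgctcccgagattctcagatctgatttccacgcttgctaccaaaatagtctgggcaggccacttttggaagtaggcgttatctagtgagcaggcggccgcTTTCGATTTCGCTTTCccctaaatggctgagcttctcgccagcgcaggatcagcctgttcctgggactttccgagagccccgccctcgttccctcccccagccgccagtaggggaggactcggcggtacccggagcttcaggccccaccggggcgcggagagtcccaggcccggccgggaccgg
The PSMB9 window is chr6:32853942-32854241 on the plus strand.
PSMB9: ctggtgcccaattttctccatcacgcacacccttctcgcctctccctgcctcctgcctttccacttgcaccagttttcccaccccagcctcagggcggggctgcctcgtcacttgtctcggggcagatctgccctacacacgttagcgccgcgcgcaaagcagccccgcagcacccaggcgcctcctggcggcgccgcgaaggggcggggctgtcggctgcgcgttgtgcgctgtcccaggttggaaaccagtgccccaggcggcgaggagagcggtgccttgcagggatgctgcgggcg
The HLA-B window is chr6:31357130-31357429 on the minus strand.
HLA-B: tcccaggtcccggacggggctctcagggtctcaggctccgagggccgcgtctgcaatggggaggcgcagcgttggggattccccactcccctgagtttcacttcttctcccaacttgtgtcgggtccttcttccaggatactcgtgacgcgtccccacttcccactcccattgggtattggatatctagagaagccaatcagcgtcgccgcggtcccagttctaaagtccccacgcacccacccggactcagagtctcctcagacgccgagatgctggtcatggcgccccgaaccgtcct

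The RefSeq starts of the printed TAP1 and PSMB9 windows lay 488 bases apart on opposite strands, and these windows shared 13 bases. The ISRE matches in the TAP1 window lie between these starts, and so upstream of both genes. The PSMB9 window held no match, but it does not reach that far. The windows therefore do not show that PSMB9 lacks an upstream ISRE match. Across the set, 32 members had at least 1 window and 8 did not (IFIT2, IFITM2, MX2, OAS2, OASL, IRF7, USP18 and TRIM22). An ISRE match was present for 22 of the 32 genes (68.8%) and in 26 of 40 member windows (65%), against 3.57% of all 35116 windows. A GAS match was present for 11 of the 32 (34.4%) and in 30% of member windows, against 7.66% of all windows. An ISRE match was in a window for 7 of the 12 members with windows that were higher in Anillin 4N than control 4N. It was also in a window for both such members that were lower, 7 of 10 that did not pass and 6 of 8 not tested. A match is a run of letters and not a measured site.

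On an RPKM scale with the GENCODE 29 exon length in place of the genomic span, used here to compare genes, the MHC class I chains led. HLA-C, a class I heavy chain, averaged 210.2 ± 3.67 in Anillin 4N, 158 ± 2.63 in control 4N, 199 ± 8.77 in Anillin 2N and 154 ± 4.04 in control 2N (SD, n = 3 each). B2M, the light chain shared by all class I molecules, averaged 128 ± 2.67 in Anillin 4N, 101 ± 5.9 in control 4N, 125.5 ± 3.23 in Anillin 2N and 102 ± 9.34 in control 2N. HLA-B, another heavy chain, averaged 120.5 ± 1.503 in Anillin 4N, 76.2 ± 3.08 in control 4N, 117 ± 5.03 in Anillin 2N and 70.8 ± 4.12 in control 2N. Below them came IFITM3 with a mean of 53.8 over 12 libraries, IFITM2 with 29.3, STAT2 with 24.8 and TRIM22 with 22.5. IFITM1 (9.18) and ISG15 (8.86) stood next to each other in this order. They lay within their SD in Anillin 4N (8.91 ± 0.205 and 9.73 ± 0.832) and apart in control 4N (8.65 ± 0.259 and 6.91 ± 0.56). The lowest were OAS2 (0.129), OASL (0.125), MX1 (0.104) and MX2 (0.0139). Whether reads in introns were counted is not given in the sources used here, which bears on every level on this scale. The exon length joins all annotated exons of a gene, 6079 bases for B2M and 2507 for HLA-C. The order of genes depends on it, since B2M held 294178 reads in all and HLA-C 191405. HLA-B and HLA-C, and likewise IFITM1, IFITM2 and IFITM3, are closely similar copies whose reads the counting could split, so their levels are uncertain.

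**Figure D1:**
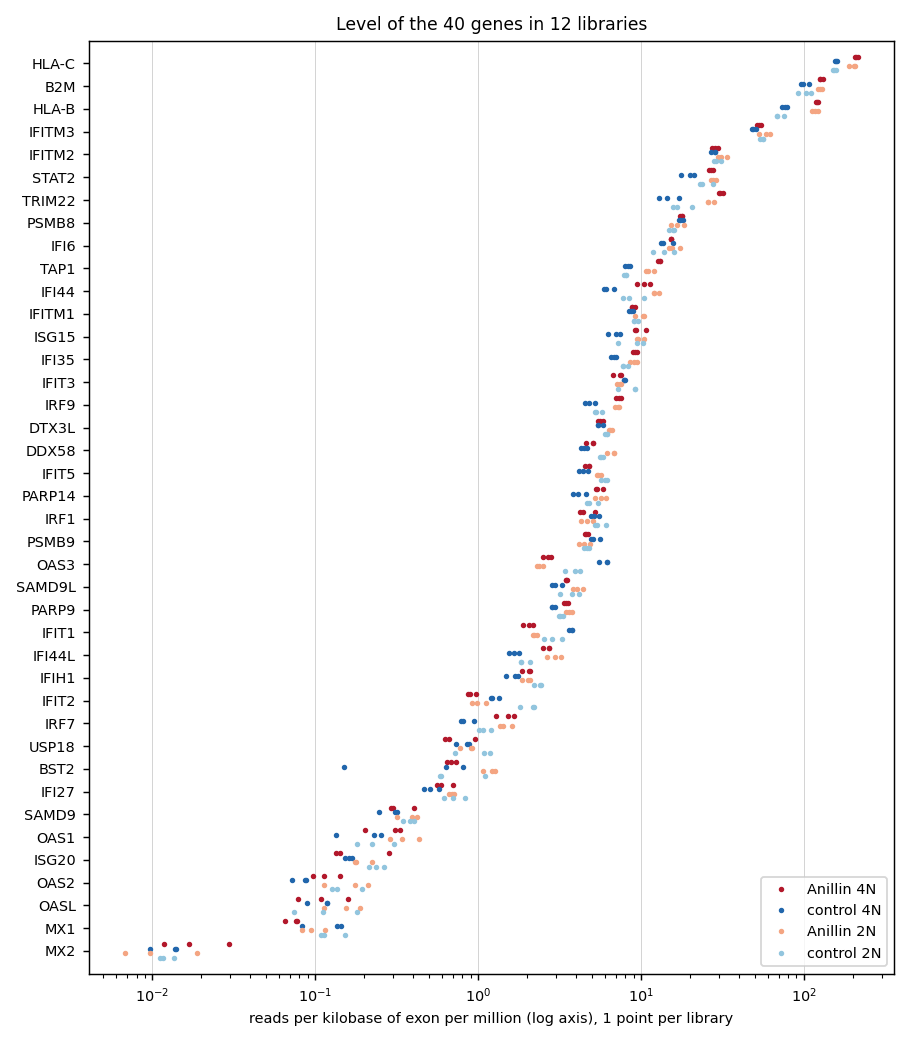
RPKM by exon length (x axis, logarithmic) for each of the 40 genes (rows, ordered by their mean), 1 point per library and colours for the 4 groups. HLA-C, B2M and HLA-B stand at the top with means of 180.1, 114 and 96.2, and MX1 and MX2 at the bottom with 0.104 and 0.0139.

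Members differed in both directions between Anillin 4N and control 4N. The sort went by DNA content alone, and the cell cycle phase of the cells in each fraction was not tested. In every siRNA comparison here, a change with the siRNA and a shift in that phase cannot be told apart. Of the 28 tested, 14 were higher in Anillin 4N than in control 4N, against 20.0% of all genes tested, and 3 were lower, against 31.5%. The 14 were TRIM22, HLA-B, TAP1, IRF9, IRF7, IFI44, ISG15, STAT2, IFI44L, HLA-C, IFI35, B2M, PARP14 and PARP9, and the 3 were OAS3, IFIT1 and IFIT2. The median log2 change of the 28 was 0.15, against -0.05 over all genes. It was 0.07 with no filter, where all 40 members entered, and 0.24 on recovered reads. All 17 calls were kept under each of 7 other settings and with any 1 library of these groups left out. On recovered reads 15 of 39 were higher, against 20.8% of all genes, and 3 were lower, against 23.6%. The share of higher calls among all called genes was 38.9% here and 52.4% with quantile scaling, under which IFITM1, IFITM2, IFITM3, IFIT5 and PSMB8 also passed as higher, for 19 in all. It was 49.1% with median-of-ratios scaling, under which IFITM3 and IFIT5 were added, for 16.

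In the 2N fraction the same comparison gave 11 members higher, against 11.4% of all genes, and 3 lower, against 17.1%. The 11 were HLA-B, TRIM22, TAP1, IFI44L, HLA-C, IRF9, IFI44, B2M, IRF7, IFI35 and PARP9, and IFIT2, OAS3 and IFIT1 were lower. The median of the 28 was 0.12, against -0.02 over all genes. The 4N and 2N comparisons share no library, though whether both fractions were sorted from the same cultures is not given in the sources used here, so their agreement may not be independent. In all, 11 members were called higher in both, which is 78.6% of the 4N calls and 100% of the 2N calls. Over all genes those shares were 44.5% and 77.9%. The 3 lower calls were shared in full, against 46.5% and 85.5% over all genes. On recovered reads 13 members were higher in Anillin 2N, against 12.4% of all genes, and 6 were lower, against 16.2%. DDX58 and BST2 joined the higher ones with changes of 0.21 and 0.82, and IRF1, IFIT3 and IFIH1 the lower ones with -0.27, -0.24 and -0.24. The BST2 call rested on 65, 58 and 27 reads in Anillin 2N against 30, 35 and 41 in control 2N. Its libraries overlapped, with 0.442 RPKM in Anillin 2N replicate 3 and 0.458 RPKM in control 2N replicate 2. With quantile scaling the share of higher calls over all genes was 50.7% in place of 40%, and the member counts stayed at 11 and 3.

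**Figure D2:**
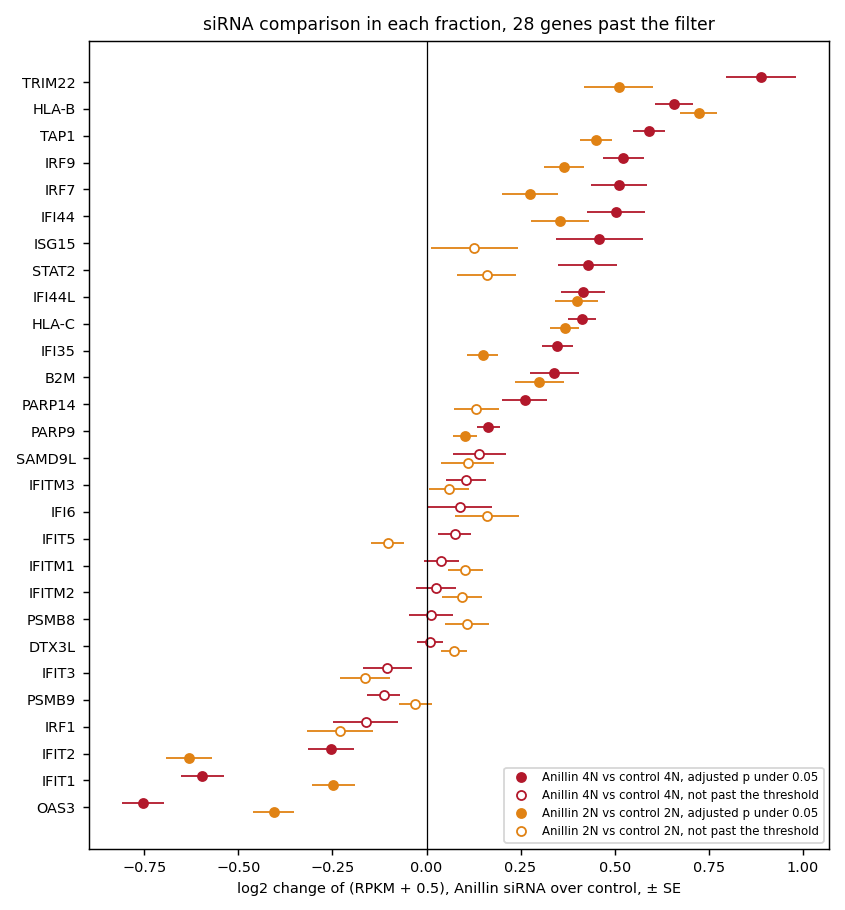
Log2 change of (RPKM + 0.5) with Anillin siRNA over control (x axis, ± SE from limma-trend) for the 28 members past the filter, in red for 4N and orange for 2N, filled where the adjusted p was under 0.05. TRIM22 at 0.89 and HLA-B at 0.66 lead the 4N rises, and OAS3 lies lowest at -0.75.

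Of the 4 transcription factors tested, 3 rose in 4N, where 20.0% of all genes did, with a median change of 0.47, and 2 rose in 2N, where 11.4% did, with a median of 0.22. IRF9, the DNA-binding subunit of ISGF3, was at 4.81, 5.19 and 5.04 RPKM in the Anillin 4N libraries, against 3.11, 3.61 and 3.30 RPKM in control 4N. It was at 5.00, 5.05 and 4.77 RPKM in Anillin 2N, against 3.94, 3.58 and 3.64 RPKM in control 2N. The groups did not overlap in either fraction. IRF9 rose by 0.52 ± 0.05 in 4N (adjusted p = 2.9e-05) and by 0.37 ± 0.05 in 2N (adjusted p = 0.000994). IRF7, the factor that drives the interferon alpha genes, was at 0.981, 1.27 and 1.17 RPKM in Anillin 4N, against 0.618, 0.722 and 0.599 RPKM in control 4N. Its rise was 0.51 ± 0.07 in 4N (adjusted p = 0.000276). In 2N it was at 1.23, 1.09 and 1.04 RPKM with Anillin siRNA against 0.823, 0.772 and 0.919 RPKM in control, a rise of 0.27 ± 0.07 (adjusted p = 0.0209). That 2N call was lost without Anillin 2N replicate 1 (adjusted p = 0.0737), control 2N replicate 1 (0.0629) or control 2N replicate 2 (0.0603), and with no filter (0.0523). STAT2, the transactivating subunit of ISGF3, was at 8.81, 9.12 and 8.56 RPKM in Anillin 4N, against 5.80, 6.96 and 6.59 RPKM in control 4N, and rose by 0.43. In 2N its change of 0.16 ± 0.08 did not pass (adjusted p = 0.161). IRF1, an activator of class I genes, passed in neither fraction, with changes of -0.16 and -0.23.

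Of the 4 regulators tested, 3 rose in 4N, against 20.0% of all genes, and 1 in 2N, against 11.4%. ISG15, a ubiquitin-like modifier, was at 7.81, 8.997 and 7.77 RPKM in Anillin 4N, against 5.94, 5.30 and 6.22 RPKM in control 4N. It rose by 0.46 in 4N. In 2N the libraries overlapped, with 8.78, 8.06 and 7.90 RPKM in Anillin 2N and 7.94, 6.09 and 8.72 RPKM in control 2N, and the change of 0.13 did not pass. PARP14, a mono-ADP-ribosyltransferase, rose by 0.26 in 4N and had a change of 0.13 in 2N that did not pass. PARP9, the partner of the ubiquitin ligase DTX3L, rose by 0.16 in 4N and by 0.10 in 2N. The 2N call of PARP9 was lost without Anillin 2N replicates 2 or 3 or control 2N replicates 1 or 3 (adjusted p = 0.0849 to 0.102). It was also lost when only these groups were fitted (0.121). DTX3L itself had changes of 0.01 and 0.07, neither past the threshold. DTX3L and PARP9 overlap on opposite strands, and whether counting used strand is not given in the sources used here.

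Of the 10 antiviral effectors tested, 1 rose and 3 fell in each fraction, with medians of 0.03 in 4N and -0.02 in 2N. Over all genes 20.0% rose and 31.5% fell in 4N, and 11.4% rose and 17.1% fell in 2N, so the counts of this group lie near those of all genes. TRIM22, a tripartite-motif ubiquitin ligase, had the largest rise of the set in 4N. It was at 3.82, 4.04 and 3.86 RPKM in Anillin 4N, against 1.64, 2.18 and 1.84 RPKM in control 4N, a rise of 0.89 ± 0.09 (adjusted p = 3.07e-05) and a ratio of means of 2.07. The 2N libraries had 3.30, 3.56 and 3.29 RPKM with Anillin siRNA against 2.11, 2.61 and 2.00 RPKM in control, a rise of 0.51 ± 0.09 (adjusted p = 0.00293). Every Anillin library stood above every control library of its fraction. Its span overlaps TRIM5 on the opposite strand.

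OAS3, which makes the oligoadenylates that switch on RNase L, had the largest fall in 4N. It was at 0.594, 0.667 and 0.638 RPKM in Anillin 4N, against 1.46, 1.31 and 1.46 RPKM in control 4N, a change of -0.75 ± 0.06 (adjusted p = 3.13e-06). The 2N libraries were at 0.561, 0.544 and 0.589 RPKM with Anillin siRNA and at 1.002, 0.803 and 0.935 RPKM in control, a change of -0.41 ± 0.06 (adjusted p = 0.000663). The 6 Anillin libraries lay within 0.544 to 0.667 RPKM whatever their DNA content, while control 4N lay above control 2N. The span of OAS3 overlaps AC004551.1 on the opposite strand, and whether counting used strand is not given in the sources used here. IFIT1, which binds viral RNA caps, was at 0.877, 0.831 and 0.761 RPKM in Anillin 4N, against 1.52, 1.51 and 1.47 RPKM in control 4N. It fell by 0.60 ± 0.06 in 4N (adjusted p = 1.88e-05). The 2N values were 0.891, 0.931 and 0.877 RPKM with Anillin siRNA against 1.15, 1.32 and 1.03 RPKM in control, a fall of 0.25 ± 0.06 (adjusted p = 0.0101) that missed the threshold when only these groups were fitted (0.0553). IFIT2, a partner of IFIT1 that can promote cell death, was at 0.499, 0.543 and 0.483 RPKM in Anillin 4N, against 0.673, 0.683 and 0.755 RPKM in control 4N. It fell by 0.26 ± 0.06 in 4N (adjusted p = 0.0058). IFIT2 in 2N was at 0.551, 0.629 and 0.515 RPKM with Anillin siRNA against 1.01, 1.21 and 1.24 RPKM in control, a change of -0.63 ± 0.06 (adjusted p = 0.000121). For all 3 genes the groups stood apart in both fractions. On recovered reads, which carry no pseudocount in RPKM, the changes in 4N were -1.15 for OAS3, -0.88 for IFIT1 and -0.49 for IFIT2, and those in 2N were -0.71, -0.33 and -1.01.

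The remaining effectors past the filter did not pass in either siRNA comparison. IFIT3, which stabilises IFIT1 complexes, had changes of -0.10 in 4N and -0.16 in 2N, and IFIT5 had 0.07 and -0.10. The IFITM proteins hold back virus entry at membranes. In 4N and 2N, IFITM1 had 0.04 and 0.10, IFITM2 had 0.03 and 0.09 and IFITM3 had 0.10 and 0.06. SAMD9L, a restriction factor that limits translation, had changes of 0.14 and 0.11.

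Of the 4 other interferon-induced genes tested, 3 rose in both fractions, against 20.0% of all genes in 4N and 11.4% in 2N. IFI44, of unsettled function, was at 1.49, 1.61 and 1.35 RPKM in Anillin 4N, against 0.851, 0.971 and 0.867 RPKM in control 4N, a rise of 0.50 ± 0.08 (adjusted p = 0.000416). The 2N libraries were at 1.70, 1.84 and 1.71 RPKM with Anillin siRNA against 1.20, 1.49 and 1.11 RPKM in control, a rise of 0.35. Its neighbour IFI44L was at 1.15, 1.26 and 1.04 RPKM in Anillin 2N, against 0.718, 0.817 and 0.717 RPKM in control 2N. IFI44L rose by 0.40 ± 0.06 in 2N (adjusted p = 0.000886) and by 0.42 in 4N. IFI35 rose by 0.35 in 4N and by 0.15 in 2N. The 2N call of IFI35 was lost without replicates 1 or 2 of either group (adjusted p = 0.0584 to 0.0771) and with only these groups fitted (0.0947). IFI6, a mitochondrial and endoplasmic reticulum protein, had changes of 0.09 and 0.16 that did not pass.

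**Figure D3:**
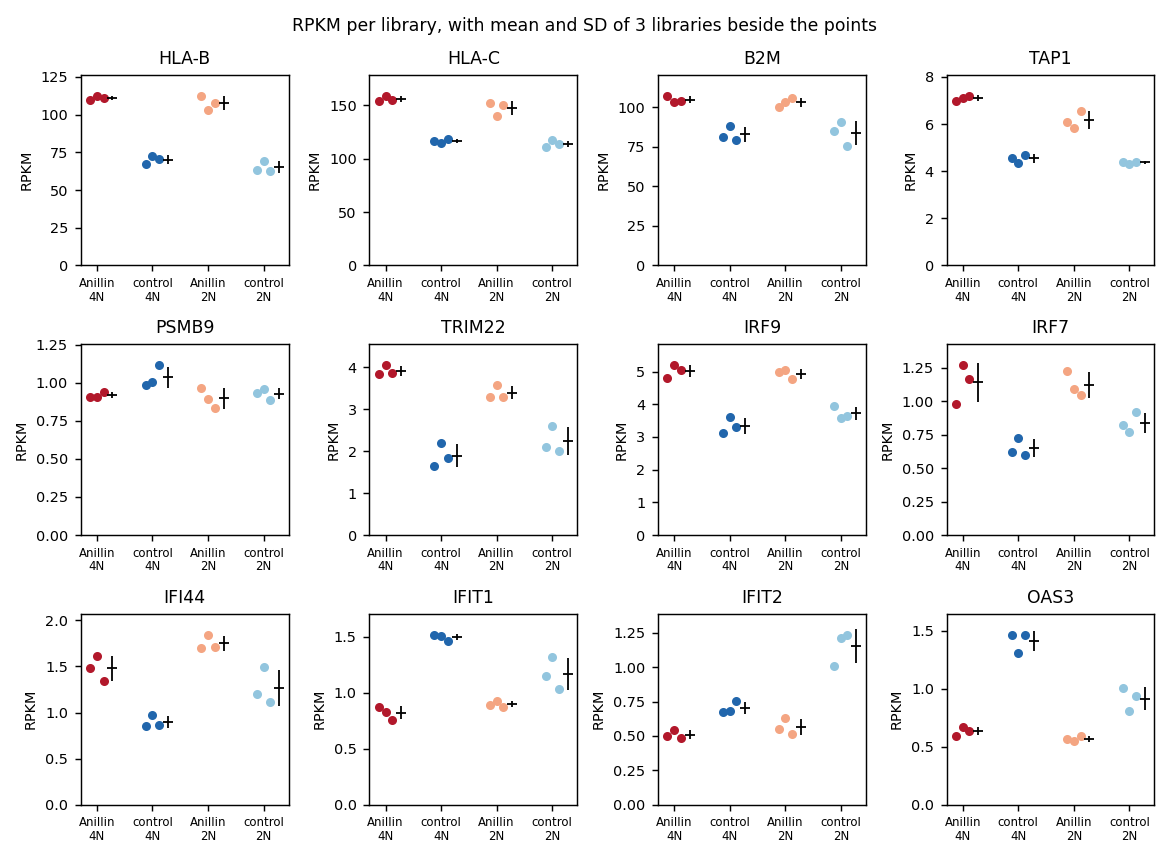
RPKM per library (y axis, from 0) for 12 members, 1 point per library in the groups Anillin 4N, control 4N, Anillin 2N and control 2N, with the mean and SD of the 3 libraries beside them. HLA-B, HLA-C, TAP1, TRIM22, IRF9 and IFI44 stand higher with Anillin siRNA in both fractions, IFIT1, IFIT2 and OAS3 lower, and PSMB9 stays at 0.833 to 1.11 RPKM.

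Of the 6 antigen presentation members, 4 rose in both fractions and the 2 immunoproteasome subunits did not pass in either. Of all genes, 20.0% rose in 4N and 11.4% in 2N. The median change of the 6 was 0.38 in 4N and 0.33 in 2N. HLA-B was at 109, 112 and 111 RPKM in Anillin 4N, against 67.2, 72.8 and 70.2 RPKM in control 4N. It was at 112, 103 and 108 RPKM in Anillin 2N, against 63.2, 69.5 and 62.7 RPKM in control 2N. It rose by 0.66 ± 0.05 in 4N (adjusted p = 4.21e-06) and by 0.72 ± 0.05 in 2N (adjusted p = 2.10e-05). HLA-C was at 152, 140 and 149.8 RPKM in Anillin 2N, against 111, 117 and 113 RPKM in control 2N, a rise of 0.37 ± 0.04 (adjusted p = 0.000164), and it rose by 0.41 in 4N. B2M rose by 0.34 in 4N and by 0.30 in 2N. TAP1, a subunit of the transporter that brings peptides into the endoplasmic reticulum, was at 6.97, 7.13 and 7.20 RPKM in Anillin 4N, against 4.57, 4.36 and 4.71 RPKM in control 4N. It was at 6.08, 5.85 and 6.57 RPKM in Anillin 2N, against 4.41, 4.31 and 4.40 RPKM in control 2N. Its rise was 0.59 ± 0.04 in 4N (adjusted p = 3.09e-06) and 0.45 ± 0.04 in 2N (adjusted p = 0.000116). PSMB8 and PSMB9, catalytic subunits of the immunoproteasome, had changes of 0.01 and -0.11 in 4N and of 0.11 and -0.03 in 2N. The adjusted p of PSMB9 in 4N was 0.0537.

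Neighbouring members did not all move together. OAS1 (chr12:112906777-112933222), OAS3 (chr12:112938352-112973249) and OAS2 (chr12:112978395-113011723) lie in a row on the plus strand of GRCh38 (GENCODE 29). TAP1 (chr6:32845209-32853978, minus) lies beside PSMB8 (chr6:32840717-32844703, minus) and within the span of PSMB9 (chr6:32844136-32859585, plus). The plot of clusters in genome order shows OAS3 lower between OAS1 and OAS2, whose own changes did not pass, and TAP1 higher beside PSMB8 and PSMB9. The ratio of TAP1 to PSMB9 RPKM was 7.68, 7.84 and 7.67 in Anillin 4N, against 4.64, 4.33 and 4.22 in control 4N. In 2N it was 6.28, 6.55 and 7.89 with Anillin siRNA against 4.73, 4.50 and 4.96 in control. Both had a two-sided exact permutation p of 0.1, the smallest that 3 against 3 libraries can give. No such test could therefore pass the threshold used here. The ratio of OAS3 to OAS1 was 9.88, 17.0 and 9.94 in Anillin 4N, against 32.9, 26.5 and 55.9 in control 4N (exact permutation p = 0.1), with OAS1 at 18 to 93 reads per library. The ratio of IFIT1 to IFIT3 was 0.649, 0.548 and 0.510 in Anillin 4N, against 0.951, 0.950 and 0.910 in control 4N (exact permutation p = 0.1), and overlapped in 2N (exact permutation p = 0.9), the only 1 of 12 such tests above the smallest p. Adjusted over the 12, that smallest p became 0.109. Apart from HLA-B with HLA-C, the pairs set a called member beside a neighbour without a call in limma-trend. Their separation follows largely from those calls, so these tests add no support to them. HLA-B to HLA-C stood at 0.706 to 0.717 in Anillin 4N, against 0.574 to 0.634 in control 4N. These genes overlap others, which bears on each ratio. On the other strand, LIPA lies over IFIT1, IFIT2 and IFIT3, and AC004551.1 over OAS1, OAS3 and OAS2. TAP1 and PSMB9 share sequence.

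**Figure D4:**
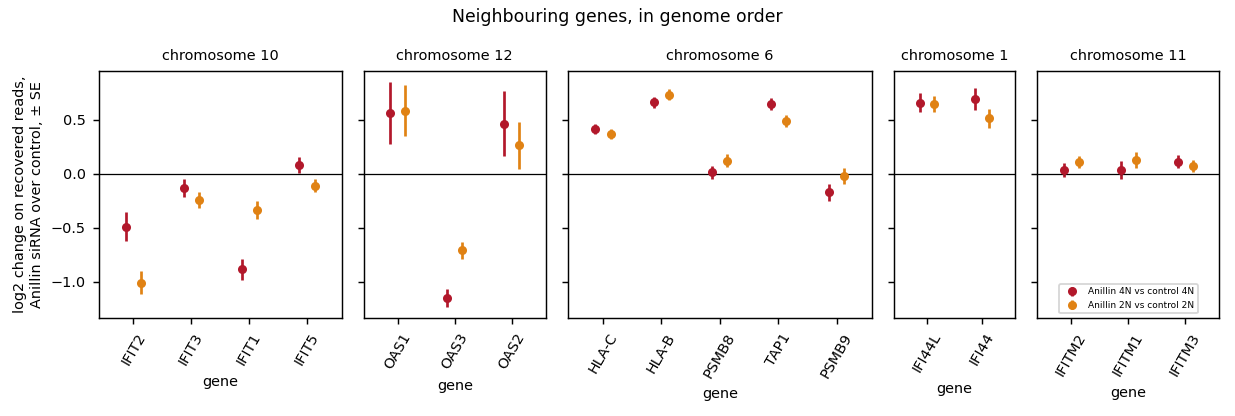
Log2 change on recovered reads (y axis, ± SE from limma-voom) with Anillin siRNA over control for members that lie side by side, in genome order on 5 chromosomes, red for 4N and orange for 2N. OAS3 at -1.15 in 4N lies below OAS1 at 0.56 and OAS2 at 0.46, and TAP1 at 0.65 lies above PSMB8 at 0.01 and PSMB9 at -0.17.

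The 12 members under the filter were DDX58, IFIH1, USP18, MX1, MX2, OAS1, OAS2, OASL, ISG20, SAMD9, BST2 and IFI27, and all but MX2 had enough reads for the second fit. The RNA sensors were the best covered of them. DDX58, the gene of RIG-I, held 364 to 1503 reads per library, at 0.263 to 0.419 RPKM. On reads it was lower in 4N than in 2N with either siRNA, by 0.41 with Anillin (adjusted p = 0.000804) and by 0.34 in control (adjusted p = 0.000342, limma-voom). IFIH1, the gene of MDA5, held 174 to 755 reads. IFIH1 changed by 0.30 ± 0.09 with Anillin siRNA in 4N (limma-voom adjusted p = 0.014) and by -0.24 ± 0.08 in 2N (limma-voom adjusted p = 0.0303). Its levels were 0.184, 0.202 and 0.206 RPKM in Anillin 4N, against 0.166, 0.174 and 0.147 RPKM in control 4N. They were 0.185, 0.201 and 0.206 RPKM in Anillin 2N, against 0.217, 0.240 and 0.238 RPKM in control 2N. The Anillin libraries were thus alike in both fractions, and the controls lay to either side. BST2, or tetherin, held 4 to 65 reads, and control 4N replicate 1 had 4 of them, at 0.0617 RPKM, against 0.262 and 0.331 RPKM in the other two control 4N libraries. The classical interferon reporters MX1, MX2, OASL and OAS2 had at most 60, 10, 39 and 54 reads in any library. OAS1 held 18 to 93 reads, USP18 26 to 142, ISG20 18 to 120, SAMD9 37 to 162 and IFI27 42 to 178.

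In control cells, members differed between the fractions in both directions. Of the 28, 3 were higher in control 4N than in control 2N, against 23.9% of all genes, and 11 were lower, against 13.2%, with a median of -0.10 against 0.05 over all genes. With quantile scaling 2 were higher and 15 lower, IFITM1, IFITM2, IRF9 and PARP14 being added, and the median was -0.20 against -0.02. OAS3 was the highest of the rises at 0.44 ± 0.06 (adjusted p = 0.000261), followed by IFIT1 at 0.27 ± 0.06 (adjusted p = 0.00546) and PSMB8 at 0.17 ± 0.06 (adjusted p = 0.0428). PSMB8 was at 13.6, 13.0 and 12.9 RPKM in control 4N, against 11.8, 11.2 and 11.9 RPKM in control 2N, and its change was 0.01 with quantile scaling. The falls were led by IFIT2 at -0.45 ± 0.06 (adjusted p = 0.000375) and IFIT5 at -0.37 ± 0.04 (adjusted p = 0.000175). IFIT5, another RNA-binding IFIT protein, was at 2.77, 2.60 and 2.94 RPKM in control 4N, against 3.87, 3.76 and 3.57 RPKM in control 2N. IFI44 fell by 0.34 ± 0.08 (adjusted p = 0.00810) and STAT2 by 0.32 ± 0.08 (adjusted p = 0.0101). STAT2 was at 5.80, 6.96 and 6.59 RPKM in control 4N, against 7.54, 9.16 and 7.83 RPKM in control 2N. IRF7 fell by 0.22 ± 0.07 (adjusted p = 0.0401) and IFI35 by 0.18 ± 0.04 (adjusted p = 0.00760). IFI35 was at 1.68, 1.74 and 1.79 RPKM in control 4N, against 1.98, 1.97 and 2.14 RPKM in control 2N. The other 5 were ISG15 (-0.34), SAMD9L (-0.21), IFITM3 (-0.16), DTX3L (-0.11) and PARP9 (-0.09). The lower count was 5 without control 4N replicate 1 or 3, 6 without control 2N replicate 1 and 6 with only these groups fitted, while OAS3, IFIT1, IFIT2, IFIT5, IFI44 and IFI35 kept their calls in every setting tried. PSMB8 lost its call without any 1 of the 6 libraries. On recovered reads, 19.0% of all genes were higher in control 4N and 17.3% lower, and OAS2, ISG20, IFIH1, IFI27, DDX58 and PARP14 also passed as lower while DTX3L did not. The share of higher calls over all genes was 64.4% here, 46% with quantile scaling and 52.1% with median-of-ratios scaling.

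In Anillin cells the fractions differed in few members. TAP1 was at 6.97, 7.13 and 7.20 RPKM in Anillin 4N, above the 6.08, 5.85 and 6.57 RPKM of Anillin 2N, by 0.19 ± 0.04 (adjusted p = 0.0433), 1 member against 2.61% of all genes. IFIT5 was at 3.001, 2.99 and 2.83 RPKM in Anillin 4N, against 3.38, 3.54 and 3.40 RPKM in Anillin 2N, and DTX3L at 2.91, 2.99 and 3.11 RPKM in Anillin 4N, against 3.39, 3.55 and 3.47 RPKM in Anillin 2N. IFIT5 fell by 0.20 ± 0.04 (adjusted p = 0.0420) and DTX3L by 0.18 ± 0.03 (adjusted p = 0.0213), 2 members against 0.970% of all genes. The median was -0.03 against 0.02 over all genes. Leaving out any of Anillin 4N replicates 1 to 3 or Anillin 2N replicates 1 and 2 ended the TAP1 call (adjusted p = 0.0870 to 0.152), and leaving out any of the 6 libraries ended that of IFIT5 (0.0801 to 0.152). DTX3L lost its call without Anillin 4N replicates 1 or 2 or Anillin 2N replicates 2 or 3 (0.0698 to 0.095). The share of higher calls over all genes was 72.9% here and 61.4% with quantile scaling. Both comparisons of fractions share their libraries with the siRNA comparisons. On recovered reads, 2.57% of all genes were higher in the 4N than in the 2N fraction and 1.47% lower, with TAP1 and DDX58 the members called.

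**Figure D5:**
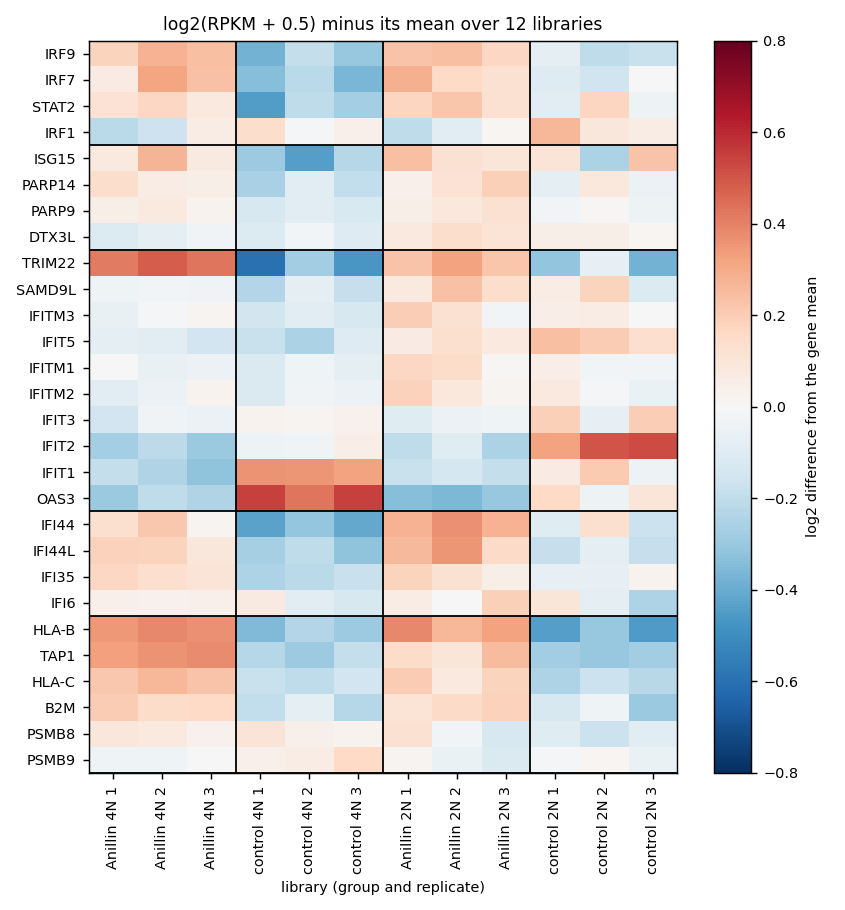
Log2(RPKM + 0.5) minus the mean of the gene over 12 libraries (colour, red above and blue below) for the 28 members past the filter, grouped by role, with libraries in columns by group. All 3 control 4N libraries lie below those of every other group for IRF7, STAT2 and IFI44 and above them for OAS3 and IFIT1, at means of 1.41 and 1.498 RPKM. For IRF9 and TRIM22 the control 4N and control 2N libraries overlap.

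The siRNA effect itself differed between fractions for 4 of the 28 members (limma-trend interaction, the log2 change in 4N minus that in 2N). Higher differences were called for 2 of 28, against 4.93% of all genes, and lower ones for 2, against 10.7%, and the median was 0.05 against -0.04. IFIT2 fell more in 2N, with a difference of 0.38 ± 0.09 (adjusted p = 0.0172). OAS3 and IFIT1 fell more in 4N, each with a difference of -0.35 ± 0.08 (adjusted p = 0.0157 and 0.0187). IFI35 rose more in 4N, with a difference of 0.20 ± 0.06 (adjusted p = 0.0468). OAS3 kept its call throughout. IFI35 lost it in 11 of 12 fits with 1 library left out, IFIT2 without control 4N replicate 1 (0.0523), and IFIT1 without the same library (0.0527) and with quantile (0.0544) or median-of-ratios scaling (0.0573). On recovered reads, where 6.36% of genes were higher and 8.19% lower, IFIH1 (0.54, adjusted p = 0.00612) and TRIM22 (0.44, adjusted p = 0.0245) also passed and IFI35 did not (adjusted p = 0.122). The share of higher calls over all genes was 31.5% here and 41.5% with quantile scaling, which added IFIT5 (0.25) and TAP1 (0.23) and gave a member median of 0.13 against 0.01 over all genes. The member counts lie near the shares of all genes. ISG15, STAT2 and PARP14 rose in 4N alone by the threshold, but their differences between fractions did not pass (adjusted p = 0.209, 0.134 and 0.35), so they are not shown to differ.

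Members were also compared in pairs by their profile over the 12 libraries, given as a description since the points share group and depth. The correlations draw on the same differences between groups as the calls above. Of 378 pairs, 25 had a Pearson correlation over 0.9 and 12 under -0.9. The closest pairs were HLA-B with HLA-C (0.985), HLA-C with TAP1 (0.983) and IFI44 with PARP9 (0.965). OAS3 and IFIT1, on different chromosomes, followed each other at 0.905. All 12 opposed pairs held OAS3 or IFIT1, with OAS3 and IFI44 the most opposed (-0.957), followed by OAS3 with PARP9 (-0.955), and IFIT1 with IRF7 and with IFI35 (both -0.945).

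Other genes of the pathway, from lists set down together with the members, were tested in the same fit. Of the interferon genes, IFNB1, IFNA1, IFNG, IFNL1, IFNL2 and IFNL3 had 0 reads of 436147019 in the 12 libraries, and a count of 0 allows up to 3 of that total, by counting error only. IFNE, an interferon first known from epithelia of the reproductive tract, was at 6.94 RPKM in Anillin 4N against 4.38 RPKM in control 4N, a rise of 0.61 (adjusted p = 0.00222). In 2N it was at 6.64 RPKM with Anillin siRNA against 6.15 RPKM in control, a change of 0.11 that did not pass (adjusted p = 0.558), and it was lower in control 4N than in control 2N by 0.45 (adjusted p = 0.0182). With it, 3 of 6 tested ligands and receptors were higher in 4N, against 20.0% of all genes, and IFNAR1, a subunit of the type I receptor, was lower (-0.23), against 31.5%. In 2N, 1 of the 6 was higher, against 11.4%, and IFNAR1 had a change of 0.06 that did not pass. Of 7 tested signalling genes, 2 were higher in 4N, STAT3 (0.38) and PTPN1 (0.14), and 1 was lower. In 2N, STAT3 alone of these 7 passed (0.41). Of 10 tested nucleic acid sensing genes, 4 were higher in 4N, TLR3 (0.52), IFI16 (0.50), STING1 (0.40) and DHX58 (0.25), and 4 were lower, TREX1 (-0.29), IRF3 (-0.23), MAVS (-0.19) and TBK1 (-0.15). Over all genes 20.0% were higher and 31.5% lower. In 2N, 2 of the 10 were higher and 3 lower, against 11.4% and 17.1%, with a median of -0.05. CGAS, the cytosolic DNA sensor, held 5 to 19 reads per library.

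Among 18 other interferon-stimulated effectors tested in 4N, 8 were higher and 3 lower, against 20.0% and 31.5% of all genes. UBA7, the enzyme that activates ISG15, led with 0.59, followed by IFI30 (0.53), LGALS3BP (0.51) and GBP2 (0.47). ADAR (-0.30), PNPT1 (-0.22) and EIF2AK2 (-0.10) were lower. The median of the 18 was 0.05. In 2N, 5 were higher and 3 lower, against 11.4% and 17.1% of all genes. CXCL10 and CXCL11, chemokines strongly induced by interferon, had 0 reads, and RSAD2 held 0 to 7 reads per library. Of 14 other antigen presentation genes tested in 4N, 7 were higher and 3 lower, against 20.0% and 31.5% of all genes, with a median of 0.18. Among the higher ones, TAPBP, or tapasin, rose by 0.37, HLA-G by 0.34, NLRC5, the transactivator of class I genes, by 0.33, HLA-F by 0.32, ERAP1 by 0.26 and HLA-E by 0.18. All 7 were also higher in 2N, against 11.4% of all genes. There 2 of the 14 were lower, against 17.1%, and the median was 0.10. CANX, PDIA3 and PSME2 were lower in 4N, and the constitutive proteasome counterparts of the immunoproteasome, PSMB5, PSMB6 and PSMB7, did not pass in either siRNA comparison.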

How the data were processed

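RNA of the 12 sorted samples was measured by RNA-seq. The authors deposited 1 table of RPKM values with 57773 gene identifiers. The submitters' processing notes list hg19 as a build and edgeR, TopHat2 and CASAVA 1.8.2 as tools, and give no roles. Annotation and counting mode are not given in what was used here. A stranded mRNA kit was used, per the labels' protocols, while another label field names ribo-depleted total RNA. The members, lists and settings were chosen with earlier results of these data known.

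All else was computed here. Each RPKM above 0 was a whole number of reads (tolerance 0.01 read) divided by the library and by a gene length, the GENCODE 29 span for 29239 genes and a common divisor of their own values for 9332. These are all 38571 genes above 0, so 100% of values came out whole. A divisor found for a gene with few values above 0 carries little weight. The authors' scaling between libraries was 1.01 to 1.04 in the Anillin groups, 0.951 to 0.962 in control 4N and 0.996 to 1.01 in control 2N.

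Genes with RPKM of at least 0.5 in at least 3 libraries (12892) were fitted with limma-trend (limma 3.58.1, R 4.3.3) on log2(RPKM + 0.5). Each of the 4 groups had its own mean, all 12 libraries entered, and p was two-sided and Benjamini-Hochberg adjusted. The 5 comparisons were siRNA within each fraction, fraction within each siRNA, and their interaction. Other settings were quantile and median-of-ratios scaling, pseudocounts of 0.1 and 1, no filter, limma-voom on recovered reads (at least 10 in at least 3 libraries, 22404 genes), only the groups compared, and each library left out. Limma-voom on the recovered reads called 4651 genes higher and 5293 lower in Anillin 4N against control 4N. Both fits were also run on simulated reads with the same spread setting for every gene. That setting was not matched to the spread of these libraries, so the simulation does not vouch for the calls here. Full statistics go to the 6 largest rises and falls per comparison of groups among called members whose libraries do not overlap, other called members get their change, and ANLN checks the labels. Of the names in the lists, IKBKE and PECAM1 were not matched and were not analysed. Values of some other list genes are not reported here. Coordinates are GENCODE 29 (GRCh38) or RefSeq. Counting-error limits take a floor of 3 reads. Tables and figures were made with Python 3.11.15, matplotlib 3.10.9, scipy 1.17.1, numpy 2.4.6 and pandas 2.3.3.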

Additional observations from a re-analysis of the deposited data

Results flagged for a closer look

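The siRNA effect differed between the 4N and 2N fractions, by the interaction in limma-trend, for 4 members, 2 higher and 2 lower of 28, which lies near the 4.93% higher and 10.7% lower of all genes. The difference, 4N minus 2N on the log2 scale, was -0.3476 for IFIT1, 0.3771 for IFIT2, 0.1977 for IFI35 and -0.3475 for OAS3. For OAS3 and IFIT1 the fall was larger in 4N and the control 4N libraries were the highest of the 4 groups, at 1.31 to 1.46 RPKM for OAS3 and 1.47 to 1.52 RPKM for IFIT1. For IFIT2 the fall was larger in 2N and the control 2N libraries were the highest, at 1.01 to 1.24 RPKM. For IFI35 the control 4N libraries were the lowest, at 1.68 to 1.79 RPKM, and leaving out single libraries ended the call in 11 of 12 fits. No group of 4 or more libraries existed in which single libraries could be checked as outliers.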

How the results depend on the processing

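No paired analysis was possible because each sample number is used once, so that no number links libraries across groups. Of 52 calls on members in the 5 comparisons, 34 were kept under every setting and left-out library and 18 were lost at least once, and no call changed sign in these. The counts of members were steady for siRNA in 4N, with 14 higher in every left-out fit and 3 to 4 lower. In 2N they were 8 to 12 higher and 3 to 4 lower, and limma-voom on recovered reads gave 6 lower. For Anillin 4N against Anillin 2N the higher count of 1 was 0 with quantile scaling, median-of-ratios scaling, no filter or only these groups, and 0 to 1 with a library left out. The lower count of 2 was 1 on recovered reads, 0 with only these groups and 0 to 1 with a library left out. For control 4N against control 2N the lower count of 11 was 6 with only these groups and 5 to 12 with a library left out, 15 with quantile scaling and 16 on recovered reads, and the higher count was 2 to 3. For the interaction, quantile scaling gave 4 higher and 1 lower, median-of-ratios scaling gave 1 lower, and left-out libraries gave 0 to 2 higher and 1 to 2 lower. The cause of these shifts was not tested. MX2, with 2 to 10 reads per library, passed neither filter.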
